A study of Rattus norvegicus with 6 samples.

Results

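The genes described here are the ligands, latent binding proteins, receptors, secreted antagonists and Smads of the TGF-beta and BMP pathway, with a few close partners. They were chosen by symbol: 54 genes, all present in the deposited table of 33509 genes. Tgfbr1 stood there under a second identifier that had 0 counts in every library and was set aside. The libraries came from myocardial tissue of Sprague-Dawley rats with acute myocardial infarction, 3 with XHT added (XHT 1 to 3) and 3 of the infarction model alone (MOD 1 to 3). The series title names the preparation Xinhuitong, and the comparison asks which transcripts differ in infarcted hearts that received it. All animals carried the infarction, so neither group stands for a healthy heart. The sources used here do not give the dose, the time after infarction, the age, the sampled part of the heart or whether each library was a separate animal. Every p-value is thus set by the spread between these libraries, which may be technical.

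TGF-beta is secreted as a latent complex, held in the matrix by latent TGF-beta binding proteins and freed by proteases or integrins. Active ligands of the family join a type II and a type I receptor, which phosphorylates receptor Smads. Smad2 and Smad3 mainly carry TGF-beta and activin signals and Smad1, Smad5 and Smad9 mainly BMP signals, and both sets enter the nucleus with Smad4. Smad6, Smad7 and Skil limit the response. In the infarcted heart the pathway is known for its part in turning fibroblasts into matrix-producing cells of the scar.

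Library totals were 16550007 to 17724689 counts. The 54 genes together took 0.219 to 0.315% of them in XHT and 0.49 to 0.684% in MOD. On the scale used for tests, CPM after trimmed-mean (TMM) scaling, a count of 0 in a library allows up to 0.148 to 0.204 CPM, which covers counting error only. Heart muscle markers were detected in every library, but their summed level varied: 9 markers, of which 1 passed as higher, summed to 22147 to 32785 FPKM in XHT and 1603 to 16310.1 FPKM in MOD, where MOD 1 and MOD 2 stood at 1774 and 1603 and MOD 3 at 16310.1 FPKM. The 10 fibroblast markers, 8 of which fell, summed to 808 to 1566 FPKM in XHT and 5452 to 14523 FPKM in MOD, with MOD 3 the lowest MOD library. The largest part of that sum was Col3a1 in every MOD library and Dcn in every XHT library. Dcn and Tcf21 did not pass (log2 fold change of XHT over MOD -0.57 and -0.35). Of those that fell, Pdgfra had -0.74 and the rest lay between -6.63, for Postn, and -3.63, for Col1a2. The 10 macrophage markers, 7 lower and 1 higher, summed to 485 to 695 FPKM in XHT and 1328 to 2502 FPKM in MOD, and the endothelial markers, of which Cldn5 was listed at 0 in every library, to 358 to 456 FPKM in XHT and 307 to 463 FPKM in MOD, so that of these 4 sums only the endothelial one overlapped between the groups. The 6 T cell markers, 2 of them lower, summed to 23.6 to 32.9 FPKM in XHT and 43.4 to 49.7 FPKM in MOD. Cd4 made up most of that sum in every library and was called lower, as was Cd8a. Lck did not pass (log2 fold change of XHT over MOD -0.87), nor did Cd3d, Cd3e and Cd3g (0.018, 0.85 and 0.49). The 4 platelet markers summed to 77.1 to 86.6 FPKM in XHT and 103 to 269 FPKM in MOD. Nearly all of that sum was Pf4, which was called lower, while Itga2b (0.86) did not pass. Mitochondrial genes took 27.1 to 29.8% of counts in XHT and 15.6 to 22.9% in MOD. The T cell and platelet sums and the mitochondrial share did not overlap between the groups. The atrial gene Myl7 passed as higher (1623 counts in XHT, 48 of them in XHT 1, and 23 in MOD). The red cell gene Hbb also passed as higher (39504 in XHT, 29279 of them in XHT 2, and 5932 in MOD). For Hbb the groups overlapped, with XHT 3 at 169 CPM below MOD 1 at 183 CPM. The atrial genes Sln, Nppa and Myl4 and the red cell gene Alas2 did not pass. In whole tissue, fewer cells of a type and less RNA per cell cannot be told apart, and the part of these shifts in the values that follow was not tested.

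The pathway did not move as a block. Lower with XHT were 4 of 16 tested ligands, 3 of 4 genes of the latent binding protein family, 2 of 6 type I receptors, Tgfbi, Bmp1 and Fstl1. These 3 family genes include Ltbp2, which does not bind latent TGF-beta. A BMP receptor, an activin receptor, a co-receptor and Smad4 were higher. Of the 54 genes, 48 had enough counts to be tested. Calls were made with edgeR (quasi-likelihood test, Benjamini-Hochberg adjustment over every gene tested) where the adjusted p was under 0.05. Fold changes are given as log2 of XHT over MOD ± SE, with the edgeR adjusted p. By this rule 12 fell, 25% of those tested, beside 16.1% of all genes tested, and 4 rose, 8.33% of those tested, beside 12.4% of all genes; in either direction 28.5% of all genes were called. No test was made of the difference between these shares. The 12 were Tgfb1, Tgfb3, Ltbp1, Ltbp2, Ltbp3, Tgfbi, Gdf6, Bmp3, Bmp1, Tgfbr1, Acvr1 and Fstl1, and the 4 were Acvr1b, Bmpr2, Tgfbr3 and Smad4. The median log2 fold change over the 48 was -0.21, against -0.021 for all genes tested. All 3 XHT values lay above all 3 MOD values for 9 genes and below them for 17, the called genes among them, beside 24.7% and 26.6% of all genes tested and 51.3% either way. In the authors' deposited table, 14 of the 53 genes with an adjusted p fell and 5 rose, beside 13.7% and 13.4% of all genes, and all 16 genes named above were called there with the same direction. Gdf6, Gdf10, Bmp3 and Bmp5 entered the test through MOD libraries alone and Bmpr1b through XHT libraries alone, so counts over the tested genes lean on that filter.

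**Figure D1:**
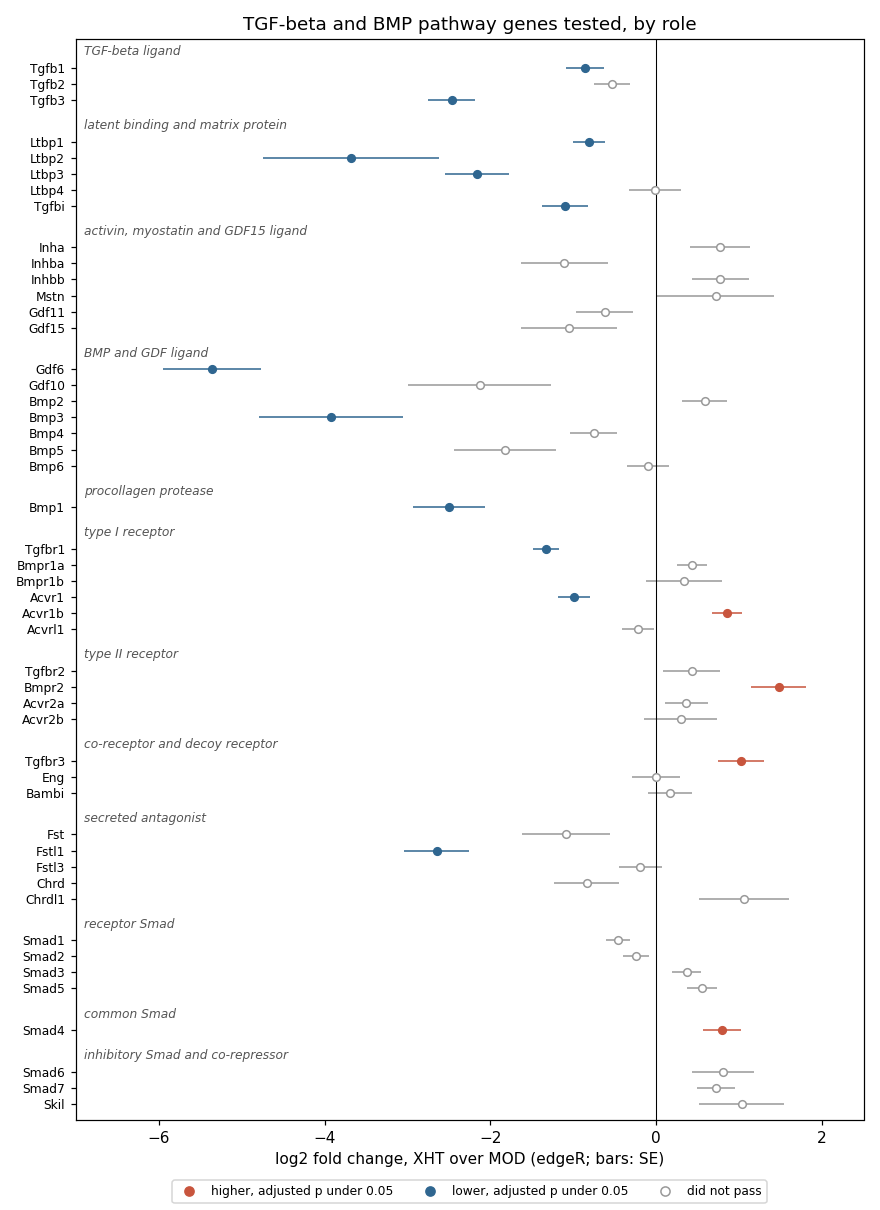
Log2 fold change of XHT over MOD (x axis) with its standard error for the 48 tested genes, in rows by role, filled where the edgeR adjusted p was under 0.05. Lower calls sit among ligands, latent binding proteins and type I receptors and at Tgfbi, Bmp1 and Fstl1, and the 4 higher calls among receptors, a co-receptor and Smad4.

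The number of calls changed with single libraries. Leaving out XHT 1 left 0 calls by edgeR, although 23 genes had an unadjusted p under 0.05. Leaving out XHT 3 left 3 lower calls, MOD 1 left 4 and MOD 2 left 6, with no higher call in these 3 fits. All genes gave 288, 375 and 570 lower and 148, 128 and 227 higher calls there. Leaving out XHT 2 gave 15 lower and 4 higher calls, which then included Gdf11, Gdf10, Bmp4, Chrd and Grem1, for which that fit had enough counts. Leaving out MOD 3 gave 17 lower and 9 higher, which then included Grem1, Tgfb2, Bmp5, Fst, Smad1, Inha, Mstn, Tgfbr2, Smad5 and Smad7. All genes gave 2135 lower and 1472 higher calls without XHT 2, and 3421 lower and 3487 higher without MOD 3. Tgfb3, Tgfbr1 and Gdf6 passed in 5 of the 6 fits that left out a library, and their adjusted p without XHT 1 was 0.0547, 0.0549 and 0.053. All 16 called genes kept the sign of their log2 fold change in every alternative run. With libraries scaled to their total counts, the median of all genes was -0.42 in place of -0.021, 17 of the genes were called lower and Bmpr2 alone higher. Acvr1b, Tgfbr3 and Smad4 then had log2 fold changes of 0.45, 0.62 and 0.40 with adjusted p-values of 0.103, 0.0878 and 0.175 (edgeR), so their rise holds relative to the other genes under TMM scaling.

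**Figure D2:**
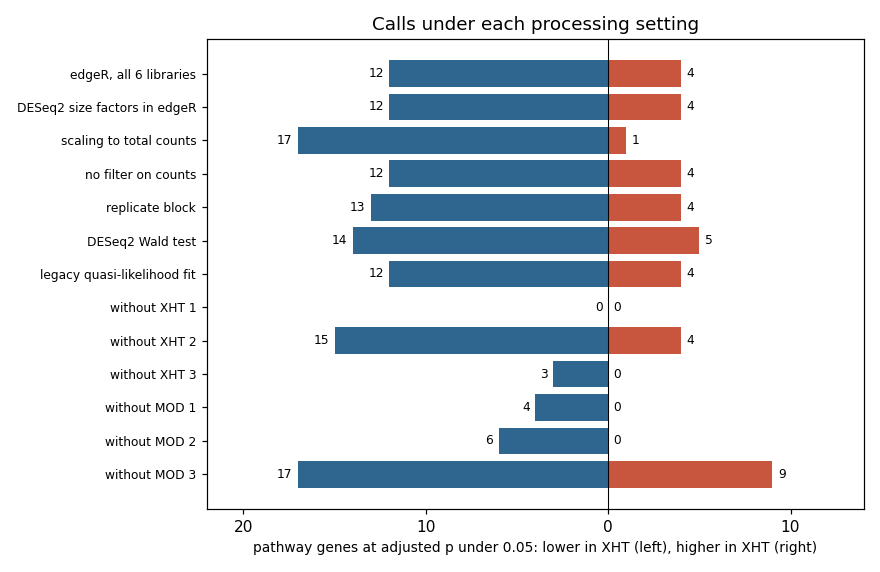
Number of the 54 genes called lower (bars to the left) and higher (bars to the right) in XHT at an adjusted p under 0.05, for the edgeR fit of all 6 libraries and each alternative. The bars vanish without XHT 1 and are longest without MOD 3, with 17 lower and 9 higher.

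**Figure D3:**
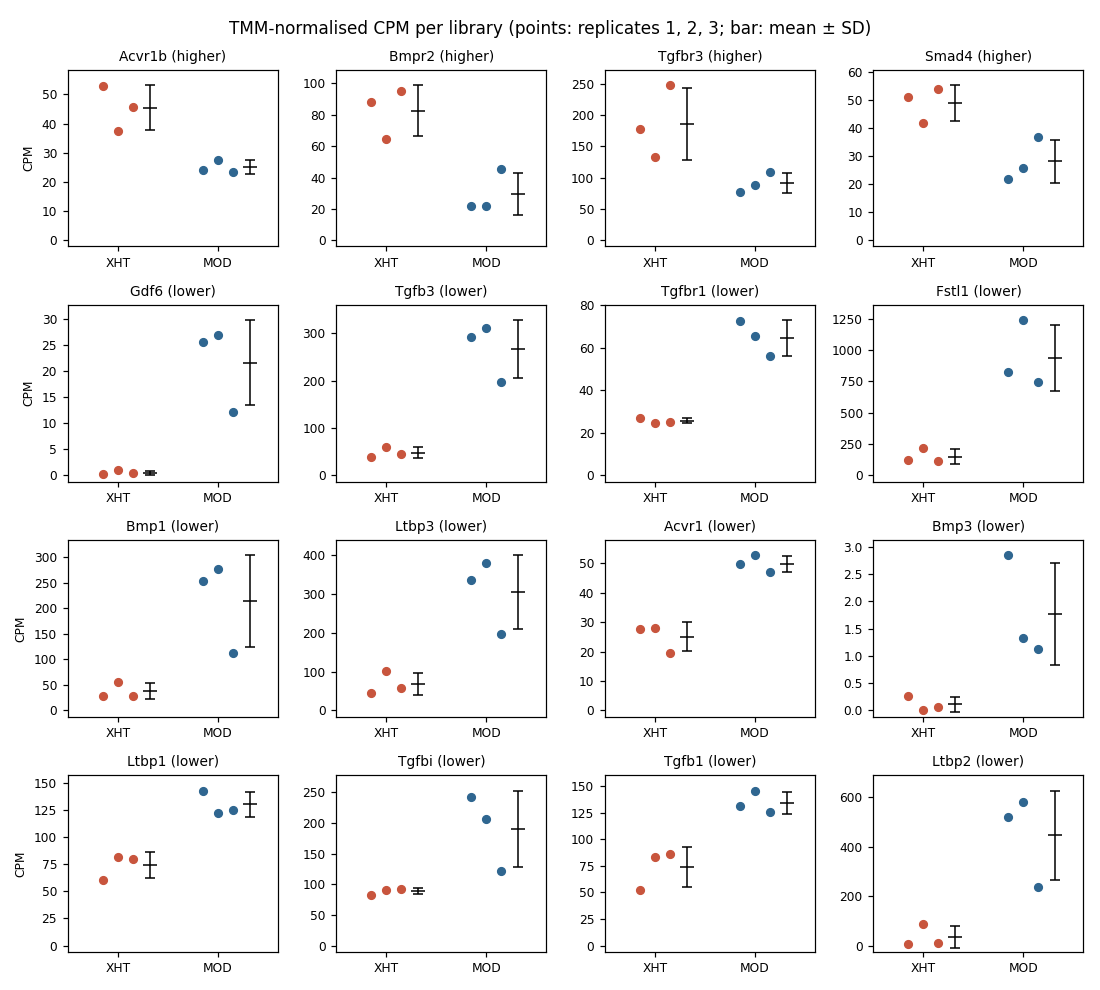
TMM-normalised CPM of each called gene in the 3 XHT and 3 MOD libraries (points, replicates 1 to 3 from left to right), with mean and SD beside them. The groups do not overlap in any panel, and MOD 3 is the MOD library nearest to XHT in every panel but those of Ltbp1 and Acvr1b.

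Promoters are shown for the 2 genes of lowest adjusted p in each direction that have an entry in the RefSeq promoter table (build GRCr8, 250 bases before to 50 after the start). Capitals mark matches on either strand to CAGAC, a form of the Smad box, or GGCGCC, a GC-rich motif that BMP Smads are known to bind. Each line runs 5′ to 3′ along the gene's strand.
Tgfb3, chr6:111456897-111457196, minus strand: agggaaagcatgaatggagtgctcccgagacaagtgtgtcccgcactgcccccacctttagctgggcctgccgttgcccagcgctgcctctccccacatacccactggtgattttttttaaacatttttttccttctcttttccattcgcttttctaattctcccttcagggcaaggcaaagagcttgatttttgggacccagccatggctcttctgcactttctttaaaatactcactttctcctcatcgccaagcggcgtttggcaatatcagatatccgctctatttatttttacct
Tgfbr1, chr5:66449148-66449447, plus strand: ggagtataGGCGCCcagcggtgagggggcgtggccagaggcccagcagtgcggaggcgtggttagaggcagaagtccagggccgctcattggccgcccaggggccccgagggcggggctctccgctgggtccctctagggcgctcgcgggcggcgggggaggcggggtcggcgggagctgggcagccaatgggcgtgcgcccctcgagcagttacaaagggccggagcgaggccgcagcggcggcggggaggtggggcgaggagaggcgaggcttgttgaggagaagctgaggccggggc
Acvr1b, chr7:134164751-134165050, plus strand: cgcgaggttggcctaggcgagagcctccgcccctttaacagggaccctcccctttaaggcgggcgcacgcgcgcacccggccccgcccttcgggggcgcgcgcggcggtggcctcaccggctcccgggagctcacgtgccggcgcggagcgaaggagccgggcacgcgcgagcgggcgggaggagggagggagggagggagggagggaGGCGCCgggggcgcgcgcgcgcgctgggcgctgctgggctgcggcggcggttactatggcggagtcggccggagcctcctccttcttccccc
Bmpr2, chr9:68686566-68686865, plus strand: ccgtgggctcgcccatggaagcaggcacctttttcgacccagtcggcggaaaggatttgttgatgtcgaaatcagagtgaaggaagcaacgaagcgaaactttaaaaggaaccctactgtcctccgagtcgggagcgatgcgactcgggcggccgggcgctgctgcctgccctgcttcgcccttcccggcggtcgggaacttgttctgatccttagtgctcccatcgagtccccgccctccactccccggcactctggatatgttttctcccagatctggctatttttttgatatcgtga
Of these 4 windows, those of Tgfbr1 and Acvr1b held GGCGCC once each, and no window held CAGAC. Over the 45 entries of the 43 genes with one, GGCGCC was in 19 (42.2%) and CAGAC in 16 (35.6%), beside 11% and 50.1% of all 33469 promoters in the table. GGCGCC stood in 4 of 9 entries of genes called lower and 2 of 4 of those called higher, and CAGAC in 3 of 9 and 0 of 4. A match says only that the letters are in the window.

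Among the TGF-beta ligands, Tgfb3 and Tgfb1 fell. Tgfb3 stood at 38.1, 60.6 and 45.8 CPM in XHT 1, 2 and 3, against 292, 311 and 197 CPM in MOD 1, 2 and 3. Every XHT library lay far below every MOD library, 5.53-fold lower in the fit (log2 fold change -2.47 ± 0.28 SE, edgeR adjusted p = 0.00816). Tgfb1, the isoform best known from injury and fibrosis, stood at 52.5, 83.1 and 86.1 CPM in XHT 1, 2 and 3, against 131, 146 and 126 CPM in MOD 1, 2 and 3. The groups did not overlap, with XHT 1 the lowest (-0.86 ± 0.23, adjusted p = 0.0332), a call that among fits leaving out a library was kept only without MOD 3. Tgfb2 averaged 26.99 ± 5.83 CPM in XHT and 39.05 ± 6.67 CPM in MOD (SD, n = 3 each), and XHT 2 overlapped MOD 3 (-0.53 ± 0.22, adjusted p = 0.0984).

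The order of the isoforms differed between the groups. Per gene length, in the deposited FPKM, Tgfb3 was the most abundant of the 3 ligands in every MOD library and Tgfb1 in every XHT library. Of their summed FPKM, Tgfb3 made up 32.5, 33.2 and 27.8% in XHT 1, 2 and 3, against 61.3, 60.1 and 53.1% in MOD 1, 2 and 3. Its mean share was 31.1% ± 2.95 in XHT and 58.2% ± 4.41 in MOD (SD, n = 3 each). The exact permutation test, two-sided, gave p = 0.1, which is the lowest value open to 3 libraries against 3. Tgfb1 made up 54.8, 55.7 and 63.9% in XHT 1, 2 and 3, against 33.7, 34.6 and 41.6% in MOD 1, 2 and 3, a mean of 58.1% ± 5.001 in XHT and 36.6% ± 4.33 in MOD (SD, n = 3 each; same exact permutation p = 0.1). A share within a library does not depend on scaling between libraries. The difference in means was between -29.5 and -25.3 percentage points for Tgfb3 with any library left out. MOD 3 had the lowest MOD share of Tgfb3 and XHT 3 the lowest of all.

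**Figure D4:**
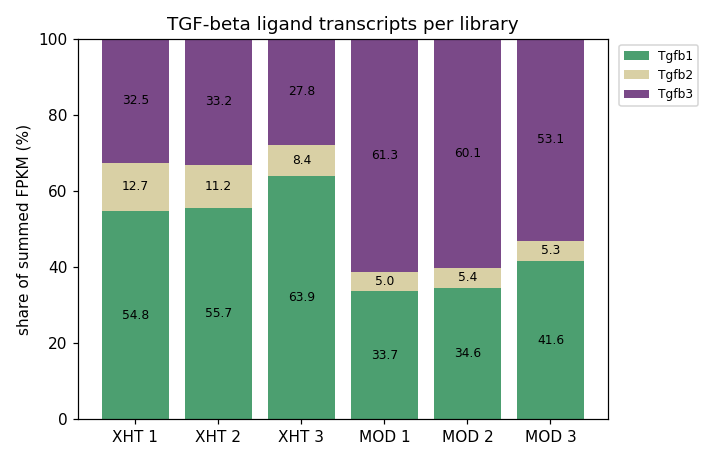
Share of Tgfb1, Tgfb2 and Tgfb3 in their summed FPKM (y axis, percent) in each library. Tgfb3 is the largest segment in the 3 MOD libraries, at 53.1 to 61.3%, and Tgfb1 in the 3 XHT libraries, at 54.8 to 63.9%.

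Of the 4 genes of the latent binding protein family, 3 fell. Ltbp2, a fibrillin-like matrix protein that shares the family's structure but does not bind latent TGF-beta, stood at 4.85, 87.96 and 11.3 CPM in XHT 1, 2 and 3, against 519, 579.8 and 239 CPM in MOD 1, 2 and 3. XHT 2 was several times higher than the other XHT libraries, and still below MOD 3 (log2 fold change -3.68 ± 1.06 SE, edgeR adjusted p = 0.041). Without XHT 2 the log2 fold change was -5.77, and with no filter on low counts Ltbp2 did not pass (adjusted p = 0.0693). Ltbp3, which does bind the latent complex, stood at 45.7, 100.9 and 57.8 CPM in XHT 1, 2 and 3, against 335, 381 and 198 CPM in MOD 1, 2 and 3, again with XHT 2 and MOD 3 nearest each other (-2.16 ± 0.39, adjusted p = 0.0143). Ltbp1 stood at 60.5, 82.1 and 80.1 CPM in XHT 1, 2 and 3, against 143, 122 and 125 CPM in MOD 1, 2 and 3, with XHT 1 the lowest and no overlap (-0.81 ± 0.19, adjusted p = 0.0246). Ltbp4 stood at 679, 959 and 800.3 CPM in XHT 1, 2 and 3, against 636, 836 and 984 CPM in MOD 1, 2 and 3. It was among the most abundant of the 54 genes in both groups, with values that overlapped across their whole range (-0.011 ± 0.31, adjusted p = 0.983; its sign turned with the scaling). Among fits leaving out a library, the calls of Ltbp1 and Ltbp2 were kept without XHT 2 or MOD 3, and that of Ltbp3 without XHT 2, MOD 2 or MOD 3.

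A matrix protein and a matrix protease grouped with these also fell. Tgfbi, a secreted adhesion protein named for its induction by TGF-beta, stood at 83.3, 90.3 and 92.1 CPM in XHT 1, 2 and 3, against 243, 207 and 121 CPM in MOD 1, 2 and 3. The XHT libraries lay close together and below MOD 3, the lowest MOD library (log2 fold change -1.103 ± 0.28 SE, edgeR adjusted p = 0.0283). Bmp1, which despite its name is the protease that cuts the C-terminal propeptide from fibrillar procollagens, stood at 28.9, 56.3 and 28.8 CPM in XHT 1, 2 and 3, against 253, 278 and 112 CPM in MOD 1, 2 and 3. XHT 2 was the highest XHT library and MOD 3 the lowest MOD library, without overlap (-2.49 ± 0.43, adjusted p = 0.0136). The call of Tgfbi was kept only without MOD 3, and that of Bmp1 without XHT 2, MOD 2 or MOD 3.

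No activin, inhibin, myostatin or GDF15 gene passed the test. Inhba, which encodes the chain of activin A, had 2.53, 2.83 and 1.29 CPM in XHT 1, 2 and 3, against 2.63, 3.46 and 8.28 CPM in MOD 1, 2 and 3, with MOD 3 the highest (log2 fold change -1.11 ± 0.52 SE, edgeR adjusted p = 0.141). Inhbb, the chain of activin B, averaged 30.7 ± 12.6 CPM in XHT and 17.98 ± 5.403 CPM in MOD (0.77 ± 0.35, adjusted p = 0.127), and Inha, the inhibin chain that opposes activin, 9.37 ± 1.63 CPM in XHT and 5.51 ± 2.67 CPM in MOD (0.77 ± 0.36, adjusted p = 0.143; SD, n = 3 each). Inha in MOD 3, at 8.59 CPM, lay within the XHT range, and without MOD 3 Inha passed as higher (adjusted p = 0.00922). Gdf15, a cytokine of cell stress, averaged 1.95 ± 1.11 CPM in XHT and 4.06 ± 1.98 CPM in MOD (-1.05 ± 0.58, adjusted p = 0.196). Gdf11 averaged 9.54 ± 4.67 CPM in XHT and 14.7 ± 1.504 CPM in MOD (-0.62 ± 0.34, adjusted p = 0.194). Mstn, a brake on muscle growth, averaged 0.762 ± 0.237 CPM in XHT and 0.462 ± 0.447 CPM in MOD (0.72 ± 0.71, adjusted p = 0.457; SD, n = 3 each). In each of these 3 the groups overlapped.

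Among the BMP and GDF ligands, Gdf6 and Bmp3 fell, and both had entered the test through MOD libraries alone. Gdf6, a BMP-type ligand known from joint and skull development, had 3, 15 and 6 counts in XHT 1, 2 and 3, against 487, 547 and 238 counts in MOD 1, 2 and 3. All XHT libraries had few counts, and MOD 3 had the fewest counts of the MOD libraries. Its 24 counts in XHT and 1272 in MOD gave a MOD to XHT ratio of 41.3 after scaling, and counting error alone (exact, 95%) put it between 27.6 and 64.6 (log2 fold change -5.36 ± 0.59 SE, edgeR adjusted p = 0.00802). Bmp3, an unusual family member that restrains BMP signals, had 4, 0 and 1 counts in XHT 1, 2 and 3, against 54, 27 and 22 counts in MOD 1, 2 and 3. The groups did not overlap, and MOD 1 had the most counts. Over 5 counts in XHT and 103 in MOD the same ratio was 16.04, between 6.65 and 50.4 (-3.92 ± 0.87, adjusted p = 0.0191). Its call was kept without XHT 2 or MOD 3 and lost without any other library.

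None of the other BMP and GDF ligands passed. Bmp6, known from blood vessels and iron sensing, stood at 17.5, 24.7 and 26.7 CPM in XHT 1, 2 and 3, against 18.9, 23.2 and 31.7 CPM in MOD 1, 2 and 3, with full overlap (-0.097 ± 0.25, adjusted p = 0.788). Bmp4 averaged 13.8 ± 5.17 CPM in XHT and 23.3 ± 3.63 CPM in MOD (SD, n = 3 each); its highest XHT value of 19.5 CPM lay just below the lowest MOD value of 20.02 CPM (-0.75 ± 0.29, adjusted p = 0.0845). Bmp2 averaged 9.04 ± 2.42 CPM in XHT and 6.01 ± 0.859 CPM in MOD (0.59 ± 0.27, adjusted p = 0.135), with the lowest XHT library just above the highest MOD library. Bmp5 was low, at 0.607 ± 0.377 CPM in XHT and 2.17 ± 1.05 CPM in MOD (-1.82 ± 0.62, adjusted p = 0.0626). Gdf10, a close relative of Bmp3, was low as well, at 0.38 ± 0.541 CPM in XHT and 1.71 ± 0.4 CPM in MOD (-2.13 ± 0.86, adjusted p = 0.0979; SD, n = 3 each), and in both genes every XHT library was below every MOD library. Bmp7 had 14 counts in XHT and 6 in MOD over 3 libraries each, Bmp10, a ligand of atrial muscle, 1 in XHT and 8 in MOD, and Gdf5 1 in XHT and 0 in MOD. These 3 were not tested.

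Among the type I receptors, Tgfbr1 and Acvr1 fell and Acvr1b rose. Tgfbr1, the type I receptor for TGF-beta, stood at 27.1, 24.8 and 25.3 CPM in XHT 1, 2 and 3, against 72.6, 65.4 and 56.02 CPM in MOD 1, 2 and 3. The XHT values lay close together and below every MOD value, of which MOD 3 was the lowest (log2 fold change -1.33 ± 0.16 SE, edgeR adjusted p = 0.0091). Acvr1, a receptor for BMPs and activins, stood at 27.7, 28.1 and 19.5 CPM in XHT 1, 2 and 3, against 49.6, 52.7 and 47.1 CPM in MOD 1, 2 and 3, with no overlap (-0.99 ± 0.19, adjusted p = 0.0157). Acvr1b, the activin receptor, stood at 52.99, 37.5 and 45.8 CPM in XHT 1, 2 and 3, against 24.2, 27.7 and 23.3 CPM in MOD 1, 2 and 3. Its lowest XHT value, in XHT 2, was above all MOD values (0.86 ± 0.18, adjusted p = 0.0194). Without XHT 2 or MOD 3 the calls of Acvr1 and Acvr1b were kept, and without any other library both were lost. Acvrl1, the endothelial receptor for BMP ligands in blood, averaged 136 ± 19.3 CPM in XHT and 159 ± 14.5 CPM in MOD (-0.22 ± 0.19, adjusted p = 0.407), and Bmpr1a 27.2 ± 3.89 CPM in XHT and 20.2 ± 2.03 CPM in MOD (0.43 ± 0.18, adjusted p = 0.107; SD, n = 3 each). Bmpr1b was low, at 0.691 to 1.09 CPM in XHT and 0.463 to 0.939 CPM in MOD (0.33 ± 0.46, adjusted p = 0.595).

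Of the type II receptors, Bmpr2 rose. This receptor for BMPs, whose loss-of-function variants are known from inherited pulmonary hypertension, stood at 88.5, 64.3 and 95.2 CPM in XHT 1, 2 and 3, against 22.1, 21.8 and 45.2 CPM in MOD 1, 2 and 3. MOD 3 was higher than the other MOD libraries and lower than every XHT library (2.78-fold higher in XHT, log2 fold change 1.48 ± 0.33 SE, edgeR adjusted p = 0.022). Tgfbr2, the TGF-beta type II receptor, stood at 119.7, 142 and 132 CPM in XHT 1, 2 and 3, against 59.4, 80.2 and 154 CPM in MOD 1, 2 and 3. MOD 3 exceeded every XHT library, while MOD 1 and MOD 2 lay below them (0.43 ± 0.34, adjusted p = 0.364), and without MOD 3 Tgfbr2 passed as higher (adjusted p = 0.00838). Of the activin-binding receptors, Acvr2a averaged 10.04 ± 1.92 CPM in XHT and 7.796 ± 1.803 CPM in MOD (0.37 ± 0.26, adjusted p = 0.309). Acvr2b averaged 1.49 ± 0.685 CPM in XHT and 1.21 ± 0.207 CPM in MOD (0.30 ± 0.44, adjusted p = 0.624; SD, n = 3 each), and both overlapped. Among the co-receptors, Tgfbr3, also called betaglycan, which presents TGF-beta and inhibin, stood at 178, 134 and 248 CPM in XHT 1, 2 and 3, against 77.8, 88.5 and 109 CPM in MOD 1, 2 and 3. XHT 3 was the highest and the groups did not overlap (1.02 ± 0.27, adjusted p = 0.0334). The calls of Bmpr2 and Tgfbr3 were each kept without XHT 2 or MOD 3 and lost without any other library. Eng, the endothelial co-receptor, averaged 468 ± 123 CPM in XHT and 469.8 ± 61.7 CPM in MOD (-0.0067 ± 0.29, adjusted p = 0.988; its sign turned with the scaling), and Bambi, a decoy receptor, 6.96 ± 1.65 CPM in XHT and 6.19 ± 0.749 CPM in MOD (0.17 ± 0.26, adjusted p = 0.643; SD, n = 3 each).

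Compared per gene length, these shifts changed the order of several receptor levels. The ratio of Acvr1b to Tgfbr1 in FPKM was 1.97 to 2.54 in XHT libraries and 0.434 to 0.55 in MOD libraries, so that Acvr1b was above Tgfbr1 in 3 of 3 XHT and 0 of 3 MOD libraries. The ratio of Bmpr2 to Acvr1 was 1.81 to 3.87 in XHT libraries and 0.327 to 0.759 in MOD libraries. Tgfbr2 exceeded Tgfbr1 in every library, by a ratio of 9.301 to 12.1 in XHT libraries and 1.72 to 5.78 in MOD libraries. The pairs were picked after their values were seen, and no test was made of them. Eng was the most abundant receptor gene in every library, at 109.8 to 189 FPKM in XHT and 131 to 170.2 FPKM in MOD.

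**Figure D5:**
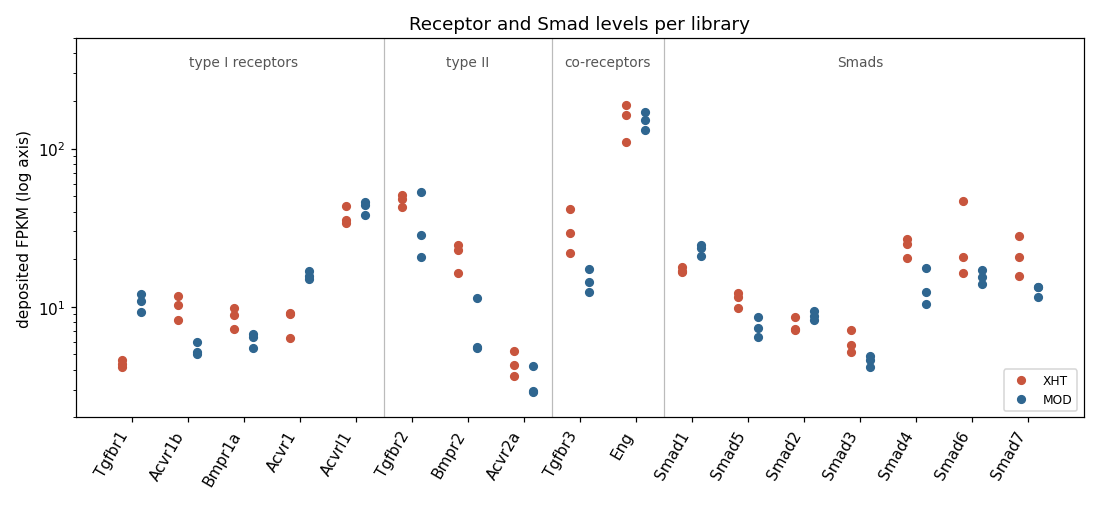
Deposited FPKM of receptors, co-receptors and Smads (y axis, log scale) in the 3 XHT libraries (left of each pair) and the 3 MOD libraries (right). Tgfbr1 and Acvr1 lie lower and Acvr1b, Bmpr2, Tgfbr3 and Smad4 higher in XHT without overlap, while Eng overlaps.

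Of the secreted antagonists, Fstl1 fell. This glycoprotein, made by stromal cells and able to bind BMP ligands, stood at 119, 218 and 112 CPM in XHT 1, 2 and 3, against 823, 1236 and 744 CPM in MOD 1, 2 and 3. It was the most abundant of the 54 genes per length in all 3 MOD libraries, at 230.3 to 388 FPKM, and in XHT stood at 35.9 to 68.9 FPKM, below Eng and Ltbp4. The fit put it 6.25-fold lower (log2 fold change -2.64 ± 0.39 SE, edgeR adjusted p = 0.0109), a call lost without XHT 1 or XHT 3 (adjusted p = 0.0566 and 0.0525) and kept without any other library. Fst, the activin trap follistatin, averaged 2.36 ± 1.12 CPM in XHT and 5.01 ± 2.39 CPM in MOD (-1.08 ± 0.53, adjusted p = 0.155), and its relative Fstl3 11.6 ± 2.49 CPM in XHT and 13.3 ± 2.91 CPM in MOD (-0.19 ± 0.26, adjusted p = 0.592; SD, n = 3 each). Chrd, the BMP-binding protein chordin, averaged 7.76 ± 4.43 CPM in XHT and 13.9 ± 2.61 CPM in MOD (-0.84 ± 0.39, adjusted p = 0.141), and Chrdl1 8.03 ± 4.904 CPM in XHT and 3.85 ± 1.65 CPM in MOD (1.06 ± 0.54, adjusted p = 0.167; SD, n = 3 each), and both overlapped. Grem1, a BMP trap of stromal cells, had 0, 5 and 0 counts in XHT 1, 2 and 3, against 68, 41 and 9 counts in MOD 1, 2 and 3. It missed the count filter. With no filter it passed as lower (log2 fold change -4.11, edgeR adjusted p = 0.0314), as it did without XHT 2 and without MOD 3 but not without XHT 1 or XHT 3. The authors' deposited table gives it a log2 fold change of -4.22 with an adjusted p of 0.00397. Nog, the BMP trap noggin, had 4 counts in XHT and 50 in MOD, 41 of them in MOD 2, and was not tested.

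Among the Smads, Smad4, the shared partner of both branches, rose. It stood at 50.99, 41.9 and 54.2 CPM in XHT 1, 2 and 3, against 21.97, 25.8 and 36.9 CPM in MOD 1, 2 and 3. The lowest XHT library was above MOD 3, the highest MOD library (log2 fold change 0.80 ± 0.23 SE, edgeR adjusted p = 0.0406); its call was kept without XHT 2 or MOD 3 and lost without any other library. The receptor Smads had small differences, and none passed. Smad1 averaged 51.1 ± 1.402 CPM in XHT and 70.4 ± 5.65 CPM in MOD (-0.46 ± 0.15, adjusted p = 0.0531) and Smad5 25.8 ± 2.83 CPM in XHT and 17.6 ± 2.61 CPM in MOD (0.55 ± 0.18, adjusted p = 0.0592; SD, n = 3 each). In each of these BMP-branch Smads the groups did not overlap, with XHT below MOD for Smad1 and above it for Smad5. Of the TGF-beta branch, Smad2 averaged 22.3 ± 2.17 CPM in XHT and 26.3 ± 1.696 CPM in MOD (-0.24 ± 0.16, adjusted p = 0.274), with XHT 3 and MOD 3 nearly equal. Smad3 averaged 30.4 ± 4.95 CPM in XHT and 23.6 ± 1.83 CPM in MOD (0.37 ± 0.18, adjusted p = 0.149; SD, n = 3 each). Per length, Smad4 was above Smad1 in 3 of 3 XHT and 0 of 3 MOD libraries, with FPKM ratios of 1.198 to 1.51 in XHT libraries and 0.44 to 0.841 in MOD libraries. Like the receptor pairs, this pair was picked after its values were seen and was not tested. Smad9 had 2 counts in XHT and 3 in MOD and was not tested.

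Of the inhibitors of the response, which TGF-beta and BMP signals are themselves known to induce, none passed. Smad7 stood at 67.6, 89.3 and 120.2 CPM in XHT 1, 2 and 3, against 51.3, 58.2 and 59.1 CPM in MOD 1, 2 and 3, with every XHT library above every MOD library (0.72 ± 0.23, adjusted p = 0.0546). It passed in DESeq2's Wald test (adjusted p = 0.0334) and in the authors' deposited table (adjusted p = 0.0348). Smad6 stood at 22.5, 28.6 and 63.6 CPM in XHT 1, 2 and 3, against 24.1, 19.5 and 21.9 CPM in MOD 1, 2 and 3 (0.81 ± 0.38, adjusted p = 0.138). Skil, a Smad co-repressor, stood at 13.7, 15.1 and 47.9 CPM in XHT 1, 2 and 3, against 8.903, 11.8 and 16.8 CPM in MOD 1, 2 and 3 (1.03 ± 0.51, adjusted p = 0.159). For Smad6 and Skil, XHT 3 stood well above the other 5 libraries, which overlapped between groups.

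A list of 53 further pathway genes, none of them among the 54, was read beside them. Of the 33 tested, 7 fell and 2 rose (21.2% and 6.06%, beside 16.1% and 12.4% of all genes), with a median log2 fold change of -0.043. Of the 33, 3 entered the test through MOD libraries alone and 1 through XHT libraries alone. By lowest p, those that fell were Tgif2, a Smad co-repressor (-2.19 ± 0.40, adjusted p = 0.0151), Tll1, a protease related to Bmp1 (-1.74 ± 0.34, adjusted p = 0.0162), Nrros, which holds latent TGF-beta on macrophages (-0.83 ± 0.20, adjusted p = 0.0262), and Nbl1, a BMP antagonist (-1.54 ± 0.39, adjusted p = 0.029). Those that rose were Zfyve9, an anchor that brings Smads to the receptor (1.302 ± 0.24, adjusted p = 0.0151), and Ppm1a, a phosphatase that acts on receptor Smads (1.03 ± 0.24, adjusted p = 0.025). With libraries scaled to total counts 10 fell and 1 rose, and with DESeq2 size factors 7 fell and 4 rose. Leaving out XHT 1, XHT 3, MOD 1 or MOD 2 left 0 of these genes called by edgeR, and leaving out MOD 3 gave 8 that rose. Among all genes, 4, 288, 375 and 570 fell and 4, 148, 128 and 227 rose without XHT 1, XHT 3, MOD 1 and MOD 2. Without MOD 3, 3487 of all genes rose.

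Of 22 genes known to be induced by TGF-beta or BMP in some cell types, all of them tested, 11 fell and 1 rose (50% and 4.55%, beside 16.1% and 12.4% of all genes), with a median log2 fold change of -0.78. Cdkn2b, a cell cycle inhibitor among those that fell, had 26 counts in XHT and 467 in MOD and entered the test through MOD libraries alone. The lowest p among those that fell was that of Snai2, a transcription factor of mesenchymal cells, which stood at 1.596, 2.197 and 1.22 CPM in XHT 1, 2 and 3, against 27.4, 26.7 and 7.61 CPM in MOD 1, 2 and 3 (-3.61 ± 0.54, adjusted p = 0.0109). MOD 3 was the lowest MOD library and still above every XHT library. Tgfb1i1, a focal adhesion protein, fell by 2.17 on the log2 scale, Fn1, the matrix protein fibronectin, by 3.74 and Nox4, an oxidase of activated fibroblasts, by 2.56, with adjusted p-values from 0.0135 to 0.016 (edgeR). The gene that rose was Hamp, the iron hormone hepcidin, at 44.3, 20.5 and 76.2 CPM in XHT 1, 2 and 3, against 3.06, 4.25 and 11.7 CPM in MOD 1, 2 and 3 (2.89 ± 0.64, adjusted p = 0.022), with no overlap. Other well-known targets were split: Id2 and Id3 fell (-1.41 ± 0.28, adjusted p = 0.0174 and -1.11 ± 0.32, adjusted p = 0.0421), while Id1 (0.53 ± 0.37, adjusted p = 0.305), with XHT 3 the highest library, did not pass. Id2, Id3 and Id1 were singled out after their values were seen. Several of these genes are also general markers of fibroblasts or smooth muscle. Acta2 and Tagln stand on both the target list and the smooth muscle and pericyte list. The 6 other markers of that list, 1 of them lower, summed to 503 to 679 FPKM in XHT and 325 to 511 FPKM in MOD, with overlap. Rgs5 was the largest part of that sum in every library and had a log2 fold change of 0.92. Those of Cspg4 and Kcnj8 were 0.054 and 0.13, and those of Myh11, Cnn1 and Pdgfrb -0.64, -1.15 and -1.42. Of these, only Pdgfrb passed. The part of the shift in fibroblast markers in these counts was not tested. The number of targets that fell was 0 without XHT 1, 1 without XHT 3, 1 without MOD 1 and 4 without MOD 2, and Hamp did not pass in any of these 4 fits. Among all genes, 4, 288, 375 and 570 fell in the same fits, beside 2336 with the 6 libraries.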

How the data were processed

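Polyadenylated RNA was sequenced as paired-end, dUTP-marked libraries with molecular identifiers, per the labels' protocols. The submitters' processing notes name DESeq2 1.16.1, featureCounts 1.5.0-p3, StringTie 1.3.3b and HISAT2 2.0.5. Their order, settings, use of strand and identifiers, and the genome build were not given in these sources. The authors deposited raw counts per gene, FPKM and their own comparison, with log2 fold changes, p-values and group means (a signal of scaled counts, not used). FPKM, so named per the file headers, equalled counts over gene length times a constant proportional to a size factor. They were used for levels between genes and not tested.

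Deposited counts of all genes were fitted in R 4.3.3 with edgeR 4.0.16 (TMM; filterByExpr, minimum count 10, minimum total 15; robust quasi-likelihood fit in the newer, non-legacy form; XHT against MOD, no covariates), with Benjamini-Hochberg adjustment over the 14488 genes tested and a threshold of 0.05. The common biological coefficient of variation was 0.348. TMM factors were 0.83 to 0.918 in XHT and 1.103 to 1.22 in MOD. Standard errors come from the F statistic. The fit was tested on simulated data with few changed genes and 1 spread for all genes, a simpler case than these libraries. No 2 libraries were duplicates (smallest chi-square per degree of freedom 42.6). The 54 genes and the other lists were chosen with earlier results of these data known. All 54 are accounted for; called genes are given per library, and from the other lists up to 4 called genes per direction by lowest p, others being named as singled out. Of several identifiers under a symbol, that with most counts was used. Reads shared with similar or overlapping genes could shift single values. Alternatives were DESeq2 size factors, scaling to total counts, no count filter, a replicate block, DESeq2 1.42.0, each library left out and, added after the data were seen, the legacy fit. Promoters are from RefSeq, GRCr8; 43 of the 54 genes had an entry. No reference genome was used.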

Additional observations from a re-analysis of the deposited data

How the results depend on the processing

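All 16 called genes kept their sign in every alternative run. With each library left out in turn, the number of calls ran over 4 to 3487 higher and 4 to 3421 lower among all genes; 0 to 9 higher and 0 to 17 lower among the 54 genes, and over 0 to 8 higher and 0 to 7 lower among the further pathway genes and 0 to 2 higher and 0 to 11 lower among the target genes. The Tgfb1 share difference ran from 18.6 to 23.96 percentage points and that of Tgfb3 from -29.5 to -25.3. With scaling to total counts, all genes gave 925 higher and 4320 lower (1792 and 2336 in the reported fit), the 54 genes 1 and 17, and 1 further pathway gene was higher; the further pathway genes called higher were 4 with DESeq2 size factors in edgeR and 5 in DESeq2's Wald test. The cause of these moves was not tested. Log2 fold changes that changed sign were all of genes that had not passed: Ltbp4 (0.015 with DESeq2 size factors in edgeR, 0.023 in DESeq2's Wald test, -0.16 to 0.16 with a library left out), Bmp6 (-0.26 to 0.14 with a library left out), Bmpr1b (-0.078 with scaling to total counts), Acvr2a (-0.013 with scaling to total counts), Acvr2b (-0.087 with scaling to total counts, -0.12 to 0.54 with a library left out), Eng (0.019 with DESeq2 size factors in edgeR, 0.0041 with no filter on counts, 0.027 in DESeq2's Wald test, -0.18 to 0.20 with a library left out), Bambi (-0.23 with scaling to total counts, -0.029 to 0.29 with a library left out), Smad3 (-0.033 with scaling to total counts). Ltbp2 lost its call with no count filter (adjusted p = 0.0693), where more genes were tested. Same-numbered libraries deviated together with correlations of -0.067, 0.25 and 0.12 for numbers 1, 2 and 3, and XHT 1 did not correlate best with MOD 1, so the numbers were not taken as pairs; with the replicate block, 4 of the 54 genes were higher and 13 lower, and 2101 of all genes higher and 2309 lower. Gdf5, Bmp7, Bmp10, Grem1, Nog and Smad9 had too few counts for the reported fit. With no count filter Grem1 passed as lower (adjusted p = 0.0314) and is 1 of the 12 lower calls there, and the other 5 did not pass.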
